A study of Mus musculus with 20 samples.

Results

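The results concern 8 gene sets for the cytosolic ribosome and for protein synthesis, out of 3886 distinct sets listed in at least 1 of 7 comparisons of mouse myeloid cells and melanoma lines. The sets were picked by a rule on their names, as those that contain RIBOSOM, TRANSLATION, SRP_DEPENDENT or NONSENSE_MEDIATED. Earlier results of these data were known when they were chosen. The rule left out 1 set for mitochondrial translation and 2 sets for modifications made after translation. By role, 1 set describes the ribosome itself (KEGG_RIBOSOME), 1 describes initiation (REACTOME_EUKARYOTIC_TRANSLATION_INITIATION), 1 describes delivery of ribosomes to membranes by the signal recognition particle, SRP (REACTOME_SRP_DEPENDENT_COTRANSLATIONAL_PROTEIN_TARGETING_TO_MEMBRANE), and 2 describe nonsense-mediated decay of messenger RNA (REACTOME_NONSENSE_MEDIATED_DECAY_NMD and REACTOME_NONSENSE_MEDIATED_DECAY_NMD_INDEPENDENT_OF_THE_EXON_JUNCTION_COMPLEX_EJC). The other 3 are the broad set REACTOME_TRANSLATION and the study signatures BILANGES_SERUM_RESPONSE_TRANSLATION and LOPEZ_TRANSLATION_VIA_FN1_SIGNALING. Among the sets that met the rule, 0 were named for elongation or termination, so ribosome and initiation could be contrasted with each other and not with elongation.

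RNA was sequenced in 20 libraries of C57BL/6 mouse material. In bone marrow, 3 libraries came from animals bearing B16F10 tumours, 2 from animals bearing YUMM3.3 tumours and 3 from healthy animals. In spleen, each of these conditions had 2 libraries. The myeloid cells were what remained after depletion of cells carrying CD3e, a T cell receptor component, from adult mice, so the label covers a cell mixture that the depletion does not free of B cells, erythroid cells or progenitors. The YUMM3.3 and B16F10 lines, grown on plates, had 3 libraries each. B16F10 is a pigmented mouse melanoma line selected for metastasis to lung, and YUMM3.3 cells derive from a melanoma of a genetically engineered mouse. The labels do not say how or when tumours were implanted, or whether animals were pooled.

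The cytosolic ribosome consists of a small and a large subunit, each built of ribosomal RNA and of proteins encoded by the Rps and Rpl genes. Initiation factors bring the small subunit and the initiator tRNA to the messenger, the subunits join, and the ribosome then elongates the chain with amino acids delivered on charged tRNAs. The SRP binds signal peptides as they leave the ribosome and takes the whole complex to the endoplasmic reticulum, while nonsense-mediated decay removes messengers on which a ribosome stops too early. Reactome counts the ribosomal proteins among the participants of initiation, SRP targeting and decay, so these sets share many genes with KEGG_RIBOSOME and are not separate measurements. Blood cell formation is sensitive to the ribosome supply, as inherited shortages of single ribosomal proteins in humans lead to anaemia.

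Each set had 1 value per comparison, a normalised enrichment score (NES). It describes how strongly the genes of a set gather at 1 end of a list of all genes ranked by their difference between the groups, after scaling for the size of the set. The signs were set here so that a positive NES means higher in the group named first, with the direction taken from the names of the reports. In the 4 comparisons with healthy animals that turns the sign the files carry, and in the other 3 it does not. The group order behind that sign is not given, and a positive value read as higher in healthy animals matches the names. Read as higher in tumour-bearing animals, it would oppose the names. Each value, rank and call against healthy animals below would then turn round, from higher to lower or from lower to higher. Some sets would then have no possible order of the groups. By the names, the authors' deposited table gave KEGG_RIBOSOME in spleen 1.24 with B16F10 and -1.84 with YUMM3.3 tumours against healthy animals. It was 1.68 in B16F10-bearing against YUMM3.3-bearing spleen. Turned round, B16F10-bearing would lie below healthy and healthy below YUMM3.3-bearing spleen, yet B16F10-bearing above YUMM3.3-bearing. LOPEZ_TRANSLATION_VIA_FN1_SIGNALING in marrow conflicts likewise, though not all of these values were called. A set was called at a false discovery rate q (FDR q) below 0.05 in the authors' deposited table. No values of single libraries or single genes were analysed here, so there is no SD between replicates, labels could not be checked against marker genes, and the depth is unknown. The deposited q values say nothing of how animals or cultures varied. In bulk samples, fewer cells of a type and less RNA per cell cannot be told apart.

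The largest scores of the ribosome and translation sets were in bone marrow. With YUMM3.3 tumours, 7 of the 8 sets were higher than in healthy marrow and 0 were lower, when 9.68% of all listed sets were higher and 6.52% were lower. With B16F10 tumours, 6 of the 8 were higher than in healthy marrow and 0 lower, against a background of 20.1% higher and 5% lower. Set directly against YUMM3.3-bearing marrow, B16F10-bearing marrow had all 8 sets lower and 0 higher, against 8.4% lower and 8.09% higher among all sets. The median NES of the 8 sets was 3.04 for YUMM3.3-bearing against healthy marrow, 2.13 for B16F10-bearing against healthy marrow and -2.96 for B16F10-bearing against YUMM3.3-bearing marrow, signed and computed from the authors' deposited table. The medians over all listed sets were 0.74, 0.96 and 0.72. The comparisons within a tissue share libraries and are not independent of each other.

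In spleen fewer of the same sets passed the threshold. B16F10-bearing spleen had 1 of the 8 sets higher than healthy spleen and 0 lower, where 16.6% of all sets were higher and 1.6% lower. YUMM3.3-bearing spleen had 0 sets higher and 1 lower than healthy spleen, where 15.6% of all sets were higher and 5.31% lower. In B16F10-bearing against YUMM3.3-bearing spleen, 4 of the 8 were higher and 0 lower, against 9.63% and 1.47% of all sets. The median NES of the 8 sets was 1.33 for B16F10-bearing and -1.19 for YUMM3.3-bearing spleen against healthy spleen, and 1.64 for B16F10-bearing against YUMM3.3-bearing spleen, signed and computed from the authors' deposited table. The matching medians over all sets were 1.09, -0.69 and 1.04. All 8 sets were on the B16F10 side of the last comparison, but so were 72.8% of all listed sets. Similarly, 7 of 8 were on the B16F10-bearing side against healthy spleen, as were 74.7% of all sets. Whether marrow and spleen differed was not tested.

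Between the cultured lines, 4 of the 8 sets were higher in YUMM3.3 than in B16F10 and 0 lower, when 11.8% of all sets were higher and 1.47% lower. The median NES was 1.59, against 1.08 over all sets, in values from the authors' deposited table. On the YUMM3.3 side were 7 of the 8 sets and 73.3% of all sets.

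**Figure D1:**
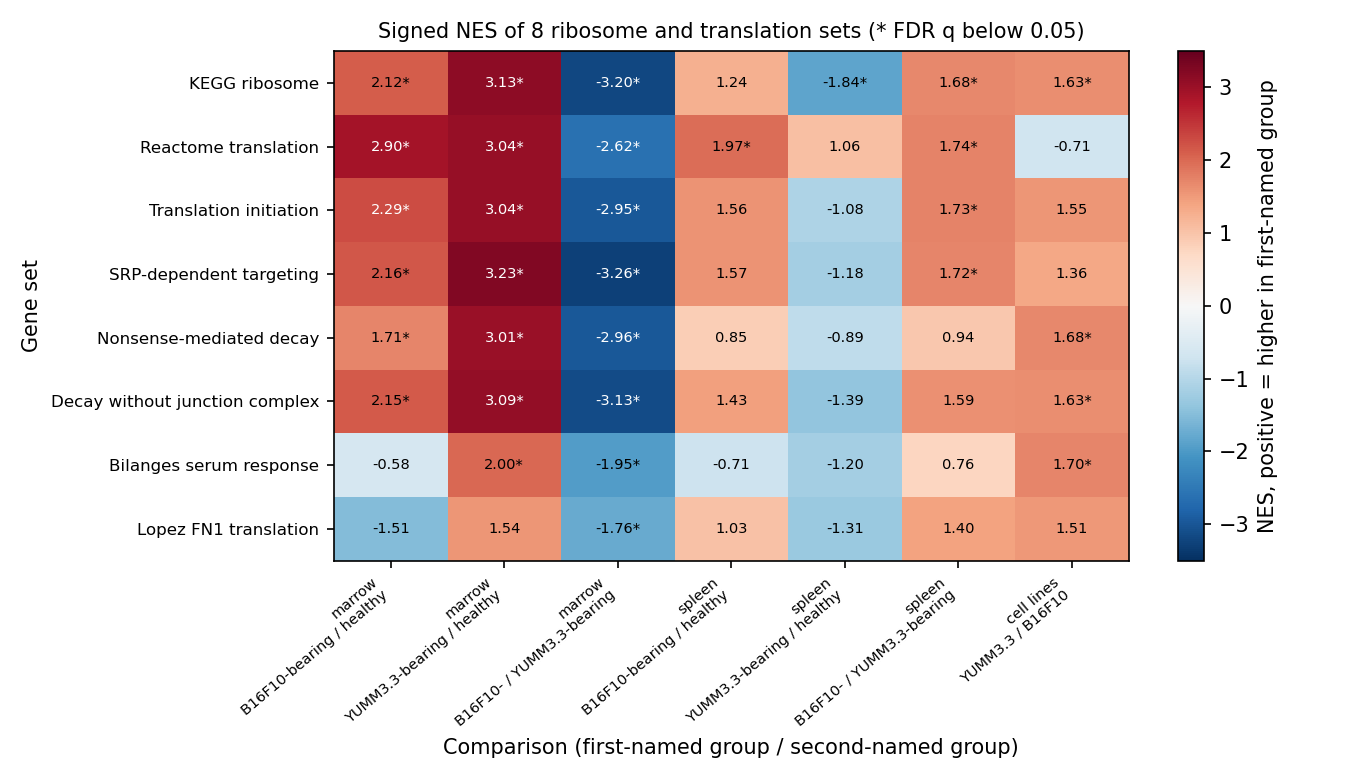
Normalised enrichment score (NES) of each of the 8 sets (rows) in each of the 7 comparisons (columns, first-named group over second-named group), red for higher and blue for lower in the first-named group, with an asterisk at an FDR q below 0.05. The darkest columns are the YUMM3.3-bearing against healthy marrow, where 6 sets exceed 3, and B16F10-bearing against YUMM3.3-bearing marrow, where all 8 are negative.

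**Figure D2:**
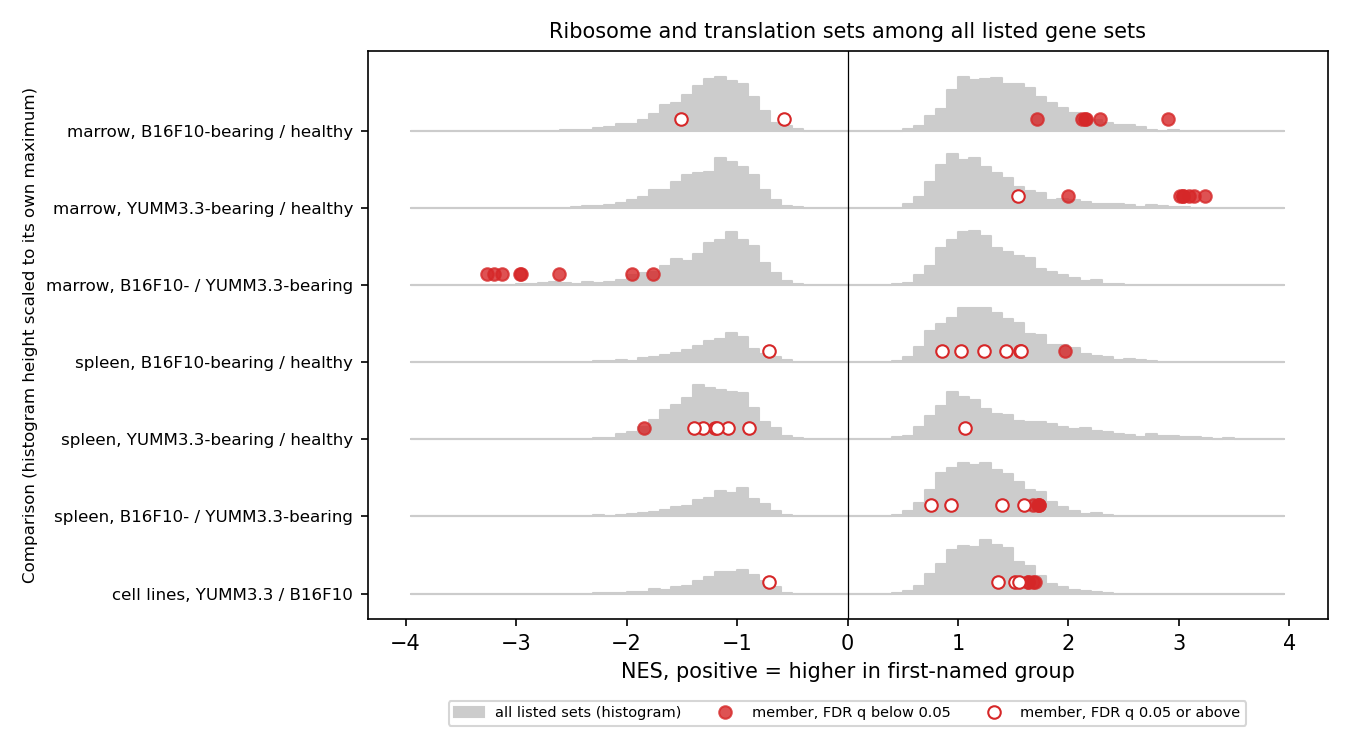
Histograms of the signed NES of all listed sets in each comparison (grey, each scaled to its own maximum), with the 8 ribosome and translation sets as points, filled at an FDR q below 0.05 and open otherwise. In YUMM3.3-bearing against healthy marrow 6 members sit in the far right tail above 3, whereas in spleen and in the cell lines the members range from 1.97 down to -1.84.

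KEGG_RIBOSOME, with 55 genes in the myeloid lists and 56 in the cell lines, holds the structural proteins of the ribosome and leaves out the translation factors. Its signed NES, with the size from the authors' deposited table, was 3.13 in YUMM3.3-bearing against healthy marrow, number 2 of 3883 sets from the YUMM3.3-bearing end. Its NES was 2.12 in B16F10-bearing against healthy marrow, number 178 from the B16F10-bearing end, with an FDR q of 0.000276 in the authors' deposited table. The direct comparison of B16F10-bearing with YUMM3.3-bearing marrow listed it at -3.20 as signed from the authors' deposited table, the 2nd lowest of all sets. By the report names, KEGG_RIBOSOME was thus higher than in healthy marrow with either tumour, and lower with B16F10 than with YUMM3.3. If a positive deposited sign meant higher in tumour-bearing animals, it would be lower than in healthy marrow, at -2.12 with B16F10 and -3.13 with YUMM3.3 tumours. The difference between tumours would not turn.

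In spleen the ribosome set was the only one of the 8 called lower in YUMM3.3-bearing than in healthy animals. Its signed NES was -1.84 (FDR q = 0.0217), which the authors' deposited table carries as a positive value in the report for healthy over YUMM3.3-bearing spleen. In B16F10-bearing against healthy spleen it was not called, with an NES of 1.24 and an FDR q of 0.323 as signed from the authors' deposited table. The set stood at an NES of 1.68 in B16F10-bearing against YUMM3.3-bearing spleen, signed from the authors' deposited table, just inside the threshold (FDR q = 0.0450). The ribosome set was therefore lower in B16F10-bearing than in YUMM3.3-bearing marrow and higher in B16F10-bearing than in YUMM3.3-bearing spleen. Between the lines, the authors' deposited table listed KEGG_RIBOSOME as higher in YUMM3.3 than in B16F10, with an NES of 1.63 (FDR q = 0.0340).

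REACTOME_EUKARYOTIC_TRANSLATION_INITIATION, which adds initiation factors to the ribosomal proteins, has 83 genes in the myeloid lists and 84 in the cell lines. Its NES as signed from the authors' deposited table was 3.04 in YUMM3.3-bearing and 2.29 in B16F10-bearing marrow against healthy marrow, and -2.95 in B16F10-bearing against YUMM3.3-bearing marrow, each with an FDR q listed at 0. Initiation exceeded the ribosome set by 0.17 in B16F10-bearing marrow and differed from it by -0.10 in YUMM3.3-bearing marrow, each against healthy marrow, as differences of NES. The 2 sets therefore had close scores in marrow.

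They were further apart in YUMM3.3-bearing against healthy spleen. There the authors' deposited table, as signed here, gave initiation an NES of -1.08 (FDR q = 0.469), not called, 0.76 above that of KEGG_RIBOSOME. B16F10-bearing against healthy spleen placed the initiation NES at 1.56 as signed from the authors' deposited table (FDR q = 0.0708), 0.33 above the ribosome set and not called. In B16F10-bearing against YUMM3.3-bearing spleen initiation was called higher, at 1.73 as signed from the authors' deposited table (FDR q = 0.0328). In YUMM3.3 against B16F10 cells it stood at an NES of 1.55, signed from the authors' deposited table, 0.08 below KEGG_RIBOSOME, and was not called (FDR q = 0.0610). There is no test of a difference between sets that share genes.

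The SRP set, of 75 genes in the myeloid lists, stood first of 3883 sets at the YUMM3.3-bearing end of the comparison with healthy marrow, at 3.23 as signed here, and had the lowest NES in B16F10-bearing against YUMM3.3-bearing marrow, -3.26, with sizes from the authors' deposited table. In B16F10-bearing against healthy marrow its NES was 2.16 (FDR q = 0.000193), number 161 from the B16F10-bearing end, as signed from the authors' deposited table. In spleen the authors' deposited table, as signed here, gave 1.57 for B16F10-bearing (FDR q = 0.0668) and -1.18 for YUMM3.3-bearing animals (FDR q = 0.331) against healthy animals, neither of them called. The comparison of B16F10-bearing with YUMM3.3-bearing spleen had it higher, at 1.72 as signed from the authors' deposited table (FDR q = 0.0346). In YUMM3.3 against B16F10 cells, its NES of 1.36 as signed from the authors' deposited table was the lowest of those on the YUMM3.3 side (FDR q = 0.167).

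The decay sets differ in whether the exon junction complex, a mark left by splicing that flags premature stops, takes part. The junction-independent set has 62 genes in the myeloid lists and the general set 78. In marrow the authors' deposited table, as signed here, gave the junction-independent set an NES of 3.09 and the general set 3.01 for YUMM3.3-bearing against healthy animals. For B16F10-bearing against healthy animals the values were 2.15 and 1.71, the general set having the highest FDR q of the 6 called there, 0.0213, in the authors' deposited table. Both were lower in B16F10-bearing than in YUMM3.3-bearing marrow, at -3.13 and -2.96 as signed from the authors' deposited table.

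In spleen the general decay set lay nearer to 0 than the junction-independent set in every comparison. For B16F10-bearing against healthy spleen the authors' deposited table, as signed here, gave 1.43 for the junction-independent and 0.85 for the general set. The same order of sets held for YUMM3.3-bearing against healthy spleen, at -1.39 and -0.89, and for B16F10-bearing against YUMM3.3-bearing spleen, at 1.59 and 0.94, as signed from the authors' deposited table. Their FDR q in spleen was between 0.0779 and 0.798 in the authors' deposited table, so neither was called there. Between the lines both were higher in YUMM3.3 than in B16F10, with an NES of 1.63 for the junction-independent set (FDR q = 0.0335) and 1.68 for the general set (FDR q = 0.0231) as signed from the authors' deposited table.

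REACTOME_TRANSLATION is the broadest member, with 236 genes in the myeloid lists. It covers the mitochondrial ribosome and the enzymes that charge tRNAs as well as the cytosolic ribosome and its factors. In B16F10-bearing against healthy marrow it stood farther from 0 than the other members, at 2.90 as signed here, number 2 of 3883 sets from the B16F10-bearing end and 0.78 above KEGG_RIBOSOME, with sizes from the authors' deposited table. In YUMM3.3-bearing against healthy marrow it was at 3.04 as signed from the authors' deposited table, 0.09 below KEGG_RIBOSOME. In B16F10-bearing against YUMM3.3-bearing marrow its NES was -2.62 as signed from the authors' deposited table, the nearest to 0 of the 6 curated sets.

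The broad set was also the only member called in B16F10-bearing against healthy spleen, with an NES of 1.97 (FDR q = 0.000879) as signed from the authors' deposited table. In YUMM3.3-bearing against healthy spleen it stood alone on the YUMM3.3-bearing side, at 1.06 (FDR q = 0.539) as signed from the authors' deposited table, 2.90 above KEGG_RIBOSOME. In B16F10-bearing against YUMM3.3-bearing spleen it was called higher, at 1.74 (FDR q = 0.0316) as signed from the authors' deposited table. In the cell lines it was again alone, on the B16F10 side, with an NES of -0.71 for YUMM3.3 against B16F10 (FDR q = 0.989) as signed from the authors' deposited table, 2.34 below KEGG_RIBOSOME.

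REACTOME_MITOCHONDRIAL_TRANSLATION, the set of 81 genes that the rule left out, covers the separate ribosome of the mitochondrion. The NES was 2.73 in B16F10-bearing and 2.70 in YUMM3.3-bearing marrow against healthy marrow, both called. The difference between tumours in marrow was called as well, at -2.35 for B16F10-bearing against YUMM3.3-bearing marrow. In spleen its NES was 1.96 for B16F10-bearing (FDR q = 0.000933) and 1.35 for YUMM3.3-bearing (FDR q = 0.175) against healthy animals, and in YUMM3.3 against B16F10 cells it was -1.71 (FDR q = 0.0475). These values, signed from the authors' deposited table, have the same sign as those of REACTOME_TRANSLATION in every comparison, and the part of the mitochondrial genes in the score of that set was not tested.

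The study signatures were not higher in B16F10-bearing than in healthy marrow, where all 6 curated sets were. BILANGES_SERUM_RESPONSE_TRANSLATION, 22 genes named for a change in translation with serum, was higher in YUMM3.3-bearing than in healthy marrow, with an NES of 2.00 (FDR q = 0.00127) as signed from the authors' deposited table. In B16F10-bearing against healthy marrow it was not called, at -0.58 (FDR q = 0.994), and its running score peaked at 80% of the ranked list in the authors' deposited table. It was lower in B16F10-bearing than in YUMM3.3-bearing marrow, at -1.95 (FDR q = 0.00391), and higher in YUMM3.3 than in B16F10 cells, where its 1.70 (FDR q = 0.0186) was the highest of the 8 as signed from the authors' deposited table. None of its 3 spleen values was called, at -0.71 for B16F10-bearing and -1.20 for YUMM3.3-bearing against healthy spleen and 0.76 for B16F10-bearing against YUMM3.3-bearing spleen as signed from the authors' deposited table.

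LOPEZ_TRANSLATION_VIA_FN1_SIGNALING, 33 genes named for translation under signals from the matrix protein fibronectin, was called in 1 comparison. It was lower in B16F10-bearing than in YUMM3.3-bearing marrow, with an NES of -1.76 (FDR q = 0.0197) as signed from the authors' deposited table. Against healthy marrow it had -1.51 with B16F10 (FDR q = 0.120) and 1.54 with YUMM3.3 tumours (FDR q = 0.0830), neither called, as signed from the authors' deposited table. Its spleen values ran between -1.31 and 1.40, and YUMM3.3 against B16F10 cells had 1.51 (FDR q = 0.0797), as signed from the authors' deposited table.

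The position at which the running score peaked differed between the tumours in marrow, as a description that no test here covers. For a leading edge, the deposited reports give the share of a set's genes met up to the peak and the share of the ranked list passed by then. In YUMM3.3-bearing against healthy marrow, the sets for the ribosome, initiation, SRP targeting and decay, 5 in all, peaked after 8% to 12% of the list, with 63% to 84% of their genes already met, in the authors' deposited table. In B16F10-bearing against healthy marrow the same 5 peaked after 41% of the list, with 86% to 96% of their genes met, in the authors' deposited table. The genes met were 5.5 to 8.62 times the share of the list with YUMM3.3 tumours and 2.10 to 2.34 times with B16F10 tumours, computed from rounded percentages. With YUMM3.3 tumours 63% to 84% of the genes of these sets thus lay within the first 12% of the list, and with B16F10 tumours 86% to 96% lay within the first 41% of it.

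KEGG_RIBOSOME shows the contrast in a single set. With YUMM3.3 tumours the authors' deposited table put 84% of its genes within 10% of the list, at a peak at rank 1515. With B16F10 tumours it put 96% within 41%, at a peak at rank 5925. The ES, the score before scaling, was 0.87 for YUMM3.3-bearing and 0.58 for B16F10-bearing marrow against healthy marrow as signed from the authors' deposited table. All 5 sets peaked at the same rank, 5925, in B16F10-bearing marrow, and all 5 at rank 5320 in YUMM3.3-bearing against healthy spleen, so that 1 gene position closed the leading edge of each.

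In B16F10-bearing against YUMM3.3-bearing marrow the 5 sets peaked after 9% of the list from the YUMM3.3 end, with 57% to 76% of their genes met, in the authors' deposited table. The spleen peaks lay after 40% to 41% of the list for B16F10-bearing against healthy, 37% for YUMM3.3-bearing against healthy and 34% to 41% for B16F10-bearing against YUMM3.3-bearing animals in the authors' deposited table. The genes met there were at most 2.27 times the share of the list. In YUMM3.3 against B16F10 cells the 5 peaked after 25% of the list, with 56% to 66% of their genes met, in the authors' deposited table.

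**Figure D3:**
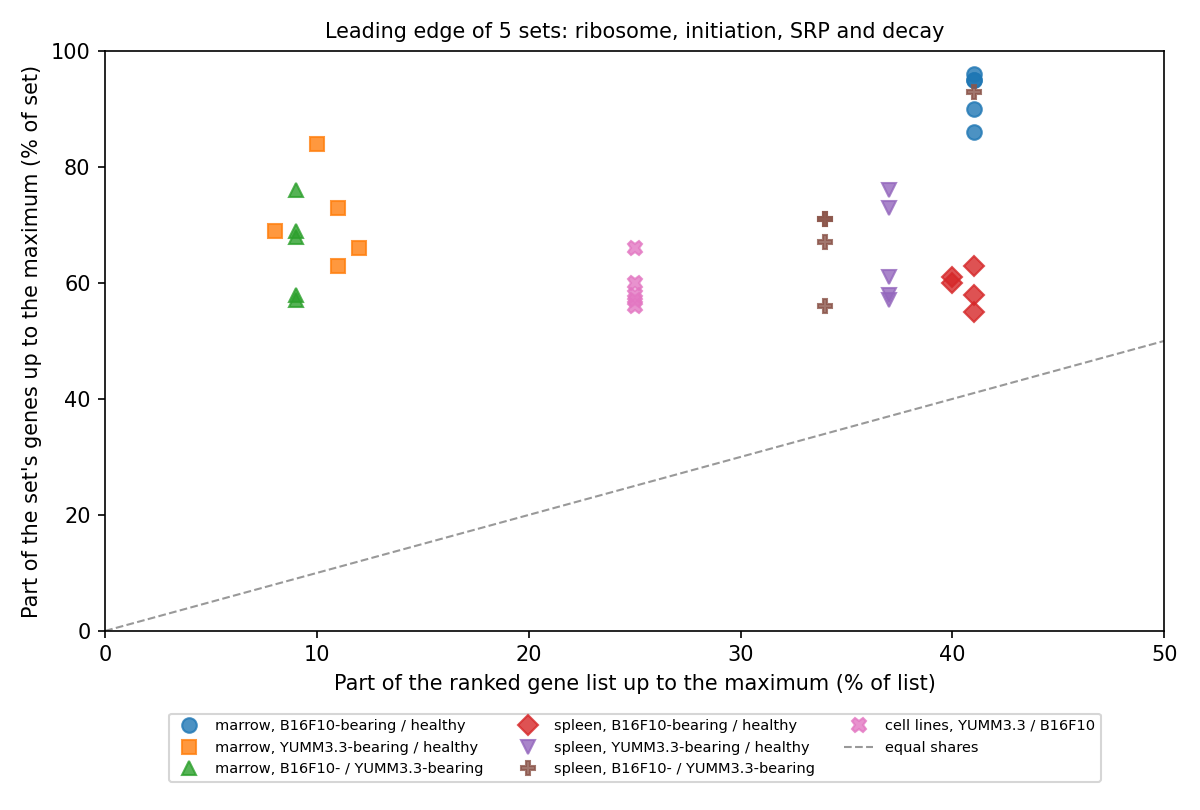
Share of a set's genes (y axis, %) met by the peak of the running score against the share of the ranked list passed by then (x axis, %), for the ribosome, initiation, SRP and both decay sets, 5 points in each of 7 comparisons; the dashed line marks equal shares. Points of YUMM3.3-bearing against healthy marrow and of B16F10-bearing against YUMM3.3-bearing marrow lie at 8% to 12% of the list, and those of B16F10-bearing against healthy marrow at 41%.

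Other steps of protein synthesis were followed in 33 companion sets chosen by name, which share genes with the members and with each other. In marrow with B16F10 tumours, 20 of the 33 (60.6%) were higher and 1 (3.03%) lower than in healthy marrow, against 20.1% and 5% of all sets. With YUMM3.3 tumours 15 (45.5%) were higher and 5 (15.2%) lower than in healthy marrow, against 9.68% and 6.52% of all sets. For B16F10-bearing against YUMM3.3-bearing marrow 6 (18.2%) were higher and 13 (39.4%) lower, against 8.09% and 8.4% of all sets. In spleen with B16F10 tumours, 4 (12.1%) were higher and 0 lower than in healthy spleen, a share under the 16.6% of all sets. With YUMM3.3 tumours 9 (27.3%) were higher and 0 lower than in healthy spleen, against 15.6% and 5.31% of all sets. The 9 include sets named for influenza and not for a step of protein synthesis. REACTOME_HOST_INTERACTIONS_WITH_INFLUENZA_FACTORS had the largest NES of the companions there, 2.39, and REACTOME_INFLUENZA_INFECTION had 1.64 (FDR q = 0.0277), as signed from the authors' deposited table. None was called in either direction between the tumours in spleen, where 9.63% of all sets were higher and 1.47% lower. In YUMM3.3 against B16F10 cells 1 (3.03%) was higher and 0 lower, under the 11.8% of all sets that were higher.

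The sets for tRNA charging, by the synthetases that load amino acids onto tRNAs, include a mitochondrial set. In B16F10-bearing against healthy marrow all 4 were higher, against 20.1% of all sets. In YUMM3.3-bearing against healthy marrow 0 of 4 were, against 9.68% of all sets. Their NES there ran between -1.36 and 1.01 as signed from the authors' deposited table. The direct comparison of B16F10-bearing with YUMM3.3-bearing marrow had 1 of the 4 higher and 0 lower, against 8.09% and 8.4% of all sets, with a median NES of 1.48. That 1 set was at the threshold (FDR q = 0.0499 in the authors' deposited table). REACTOME_TRNA_AMINOACYLATION had an NES of 2.46 and REACTOME_CYTOSOLIC_TRNA_AMINOACYLATION 2.34 in B16F10-bearing against healthy marrow as signed from the authors' deposited table. In spleen 3 of the 4 were higher than in healthy animals with either tumour, against 16.6% of all sets with B16F10 and 15.6% with YUMM3.3. The cytosolic set was at 1.76 for B16F10-bearing (FDR q = 0.0142) and 1.89 for YUMM3.3-bearing animals (FDR q = 0.00267) as signed from the authors' deposited table. The median NES of tRNA charging sets was 1.76 in YUMM3.3-bearing against healthy spleen, the comparison in which KEGG_RIBOSOME was lower.

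Sets for ribosomal RNA, the other component of the ribosome, were higher in 7 of 7 cases in marrow with either tumour against healthy marrow. The 7 include sets named for negative control of ribosomal RNA expression and sets named for positive control. Their count is therefore no measure of the amount of ribosomal RNA. Of all sets, 20.1% were higher with B16F10 and 9.68% with YUMM3.3 tumours. The median NES of the 7 was 2.17 for B16F10-bearing and 2.80 for YUMM3.3-bearing animals. REACTOME_RRNA_PROCESSING, which also lists ribosomal proteins, had an NES of 2.60 with B16F10 and 2.81 with YUMM3.3 tumours as signed from the authors' deposited table. In B16F10-bearing against YUMM3.3-bearing marrow 6 of the 7 were lower, against 8.4% of all sets. The remaining set, for ribosomal RNA modification, was at -1.50 (FDR q = 0.101) as signed from the authors' deposited table. In spleen 0 of 7 were called with B16F10 tumours and 4 were higher with YUMM3.3 tumours, each against healthy spleen. Of all sets, 16.6% and 15.6% were higher there. All 4 of these describe the control of ribosomal RNA genes by chromatin, as in REACTOME_SIRT1_NEGATIVELY_REGULATES_RRNA_EXPRESSION at 1.86 (FDR q = 0.00372) and REACTOME_POSITIVE_EPIGENETIC_REGULATION_OF_RRNA_EXPRESSION at 1.77 (FDR q = 0.00897) as signed from the authors' deposited table, and such sets list histones among their genes. The same 4 are among the 7 higher in marrow.

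Of the 2 sets for initiation factors, REACTOME_ACTIVATION_OF_THE_MRNA_UPON_BINDING_OF_THE_CAP_BINDING_COMPLEX_AND_EIFS_AND_SUBSEQUENT_BINDING_TO_43S, which includes small subunit proteins, was higher in marrow with either tumour, at 2.03 for B16F10-bearing and 2.60 for YUMM3.3-bearing against healthy animals as signed from the authors' deposited table. The remaining set, BIOCARTA_EIF4_PATHWAY, covers signalling to the cap-binding factor and was on the healthy side in both, at -1.22 for B16F10-bearing and -1.40 for YUMM3.3-bearing marrow as signed from the authors' deposited table, not called. Sets for mTOR, the kinase that couples nutrients to translation, and for rapamycin, its inhibitor, were called in both directions in YUMM3.3-bearing against healthy marrow, with 3 of 14 (21.4%) higher and 4 (28.6%) lower, against 9.68% and 6.52% of all sets. The 4 lower were curated pathway sets, between -1.83 and -1.73 as signed from the authors' deposited table. The 3 higher were study signatures, 1 of them at an FDR q of 0.0499. With 2 of the 14 (14.3%) higher and 1 (7.14%) lower, B16F10-bearing against healthy marrow was near the background of 20.1% and 5%. Between the tumours in marrow, 4 (28.6%) were higher and 2 (14.3%) lower with B16F10, against 8.09% and 8.4% of all sets. REACTOME_SELENOAMINO_ACID_METABOLISM and REACTOME_REGULATION_OF_EXPRESSION_OF_SLITS_AND_ROBOS, whose Reactome lists contain ribosomal proteins, had 2.90 and 3.11 in YUMM3.3-bearing against healthy marrow and -2.77 and -2.99 in B16F10-bearing against YUMM3.3-bearing marrow as signed from the authors' deposited table.

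**Figure D4:**
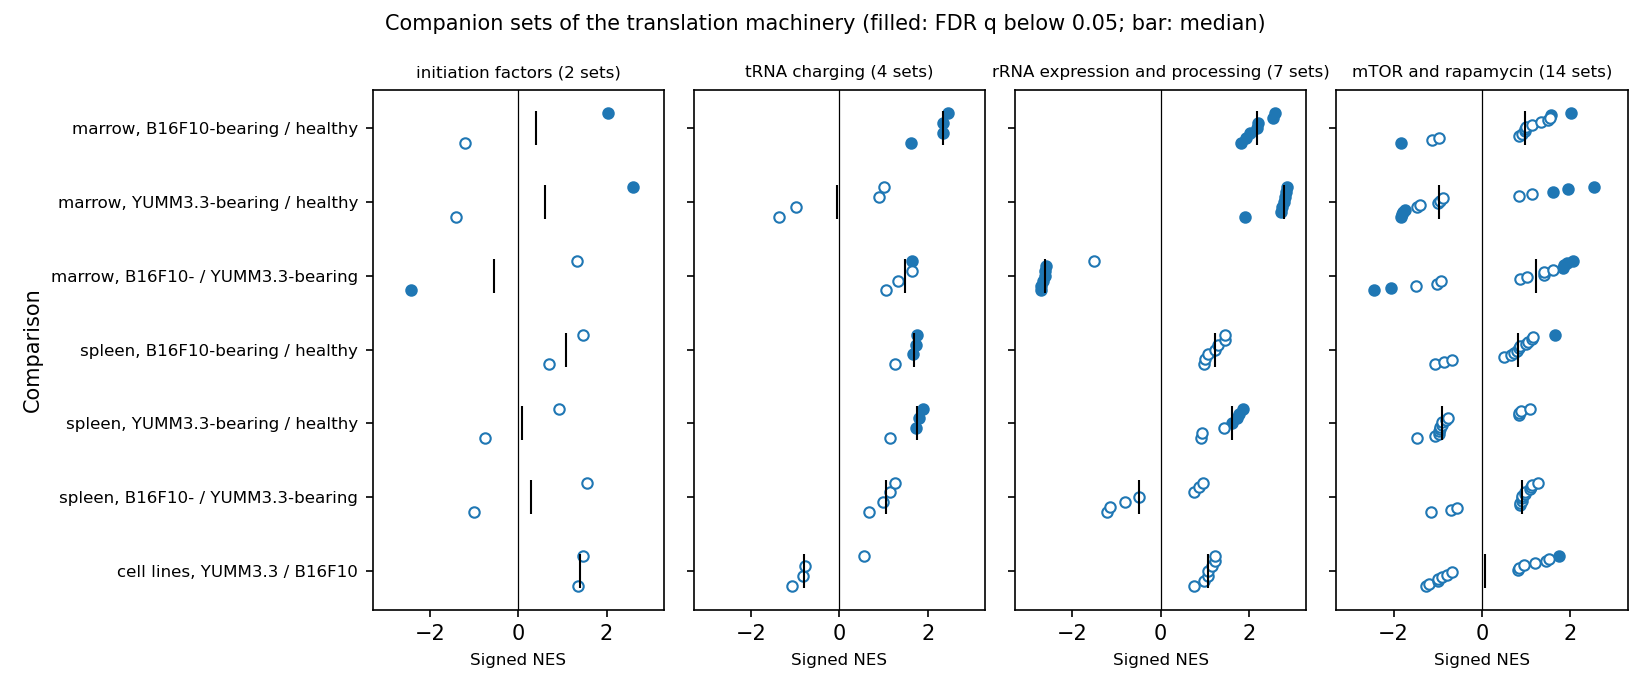
Signed NES (x axis) of companion sets of 4 kinds (panels) in the 7 comparisons (rows), filled at an FDR q below 0.05 and open otherwise, with a vertical bar at the median. tRNA charging sets lie right of 0 in B16F10-bearing against healthy marrow and on both sides of 0 in YUMM3.3-bearing against healthy marrow, while the 7 ribosomal RNA sets lie right of 0 in both.

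A set of B cell progenitor genes was lower in B16F10-bearing than in healthy marrow. With YUMM3.3 tumours it lay on the same side and narrowly missed the threshold. HADDAD_B_LYMPHOCYTE_PROGENITOR, a set of 215 genes of early B cells picked here with its values known, had an NES of -2.74 for B16F10-bearing (FDR q listed at 0) and -1.65 for YUMM3.3-bearing (FDR q = 0.0544) against healthy marrow, and -1.14 (FDR q = 0.435) for B16F10-bearing against YUMM3.3-bearing marrow, as signed from the authors' deposited table. In spleen it had -1.63 for B16F10-bearing and 1.12 for YUMM3.3-bearing against healthy animals as signed from the authors' deposited table, neither called. The part of B cell progenitors in the ribosome and translation scores was not tested.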

How the data were processed

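Gene set enrichment results were deposited as 14 reports covering 7 comparisons, with the directions in separate reports. Per the submitters' processing notes, FastQC 0.11.8, STAR 2.7.1a, featureCounts 1.6.0, DESeq2 1.22.2 and mm10 were used, with no role given. The ranking measure, permutation scheme and set version are not given in the sources used here. Per the file headers, each deposited row holds a score before scaling (ES), a scaled score (NES), a nominal p-value, an FDR q-value and an FWER p-value, with the set's size, its leading edge and the rank of its peak.

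Rows were picked by set name, and both reports of a comparison were joined in Python 3.11.15 with pandas 2.3.3. Each report was read as holding sets higher in its first-named group; the cell line reports were read by their up and down labels. In the 4 comparisons with healthy animals, the deposited NES is negative in the tumour-first reports and positive in the healthy-first reports. That sign opposes the names only if positive means higher in tumour-bearing animals, and the group order behind it is not given. A reversal of all comparisons of a tissue together would not show in these files. The smallest nonzero nominal p was 0.00103, below the 0.05 to 0.167 that relabelled libraries allow, so the p and q values do not rest on relabelled libraries. No filter and no test was applied here. The code was run on simulated reports built with the same direction rule, so that run could not check the direction. Labels do not tie libraries to animals. Every member is named in the text; companions are named from at most 10 per comparison by NES size, and both initiation factor sets in marrow outside that rule. Members and lists were chosen with earlier results of these data known.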

Additional observations from a re-analysis of the deposited data

How the results depend on the processing

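Of 168 alternative values for 35 results, 141 kept their direction and stayed within 1.5 times the reported value (for ES, direction only). Many of these could not change. The 14 class means are over classes of 1 set, and the 21 ES values share the sign of the NES. Many counts of 0 also stayed at 0, so the total is no measure of robustness. Direction was also read from the sign of the deposited NES, with positive taken as higher in the first-named group. That turned round the 4 comparisons with healthy animals. Medians became -2.13 (B16F10-bearing marrow), -3.04 (YUMM3.3-bearing marrow), -1.33 (B16F10-bearing spleen) and 1.19 (YUMM3.3-bearing spleen). In that order, the calls became 0 higher and 6 lower, 0 higher and 7 lower, 0 higher and 1 lower, and 1 higher and 0 lower. At an FDR q below 0.25, B16F10-bearing against healthy marrow gained 1 lower set, B16F10-bearing against healthy spleen had 4 higher, YUMM3.3-bearing against healthy spleen 3 lower and YUMM3.3 against B16F10 cells 7 higher. At an FWER p below 0.05, 0 sets were called in those spleen comparisons, in B16F10-bearing against YUMM3.3-bearing spleen and in the cell lines. With mitochondrial names kept, B16F10-bearing against healthy spleen had 2 higher and the cell lines 1 lower. Sets of 25 to 200 genes left 0 higher in B16F10-bearing against healthy spleen, since the called set is larger. The mean in B16F10-bearing against healthy marrow was 1.41, against a median of 2.13. An alternative chosen after seeing the data counted sets with the same rank at the maximum once, which left 2 higher in B16F10-bearing against healthy marrow, 5 lower in B16F10-bearing against YUMM3.3-bearing marrow and 2 higher in the cell lines. No library could be left out, because the files hold no values per library. No paired analysis was possible because the values come from no test on libraries and the labels share no replicate numbers between groups. Depth is unknown, so what it limits could not be judged.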
